A study of Mus musculus with 2 samples.

Results

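The 39 genes described here were the Gm-named microRNA (miRNA) genes that received at least 1 read in mouse heart, chosen by their own counts from the 2202 miRNA genes counted in each library. A name that starts with Gm is a provisional name for a predicted mouse gene. Of 1021 such genes in the tables, 54 lay in the miRNA cluster of chromosome 12 or within Sfmbt2 and were left out. Of the remaining 967, 39 had a sense-strand count summing to at least 1 over the libraries, and 928 had none. The only left-out Gm-named gene with sense reads was Gm25263 in Sfmbt2, with 0 reads in replicate 1 and 3 in replicate 2. Because reads chose the genes, their presence in the libraries is a description and was not tested.

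The study sequenced small RNAs from heart tissue of male B6CASTF1/J mice aged 18 to 20 months, a first-generation hybrid strain. There were 2 libraries in 1 group, with no treated or control group. They are labelled as biological replicates with separate biosamples, but they share a donor record, so the spread between them may be technical. Replicate 1 held 3037063 reads in miRNA genes and replicate 2 held 5284446, out of 9468820 and 19574873 reads in all. Counts are also given per 1000000 reads in miRNA genes (CPM), and a count of 0 allows a level of up to 0.988 CPM in replicate 1 and 0.568 CPM in replicate 2, taken as 3 reads. As a check of the tissue label, 7 of 8 listed heart muscle miRNA genes had at least 10 reads in both libraries, and 0 of 6 brain miRNA genes did. So did 6 of 7 epithelium genes and the 1 liver gene listed (91 and 67 reads), so passing this count is not particular to heart.

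A miRNA is cut from a hairpin precursor by the nucleases Drosha and Dicer, and the short product guides Argonaute proteins to messenger RNAs, mainly through its seed (bases 2 to 8). A small RNA library also takes up fragments of other RNAs of similar size, such as transfer RNA (tRNA), small nucleolar RNA (snoRNA, which guides chemical changes of other RNAs) and 7SL RNA, the scaffold of the particle that sends nascent proteins to the endoplasmic reticulum. A predicted miRNA gene can therefore lie on the sequence of another RNA. The genes were grouped, after their values were seen, by what lay at the same place in GENCODE M21 or had the same sequence, in this order: a RefSeq miRNA record, a Mir gene, a snoRNA or 7SL exon, a serine tRNA sequence, a family of near-identical sequences, a sense exon, and then, for the genes left, a sense intron, the strand opposite a gene, or no other gene.

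The label miRNA gene had support from RefSeq for 3 of the 39 genes, and 36 had no RefSeq miRNA record (RefSeq on GRCm38.p6). Such a record lay at the same place for 8 of all 967 Gm-named genes outside the left-out loci (0.827%). Of the Mir-named genes with reads, 86.8% of 691 had one. The 3 genes of the set with a record carry the miRBase-style names Mir9769 (Gm38670), Mir935 (Gm23450) and Mir3154 (Gm23363). Their 4 mature sequences, shown because they are the only recorded mature products in the set, have 4 different seeds (capitals), and no mature sequence of any other gene in the RefSeq table shares one.
mmu-miR-9769-5p: aGGCACAGaauuaggcccgacc
mmu-miR-9769-3p: uAGGGUCUguucuguguccucc
mmu-miR-935: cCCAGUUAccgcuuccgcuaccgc
mmu-miR-3154: cAGAAGGGgagucgggagcgga

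The hairpin of Gm38670 is shown as the best covered of the 3, with both mature sequences in capitals. It spans chr7:30552828-30552904 on the plus strand.
Gm38670 hairpin: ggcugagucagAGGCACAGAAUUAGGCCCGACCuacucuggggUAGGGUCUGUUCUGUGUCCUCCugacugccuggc

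The 57-base sequence of Gm23935, the most read gene of the set in replicate 2 but not in replicate 1, is shown with its relatives because it occurs in several places of the genome. Gm24270 and Gm24245 are identical to it, and Gm24187, Gm23388 and Gm25911 share 20-base stretches with it. Copies outside annotated genes were not counted, since no genome or ribosomal RNA sequence was at hand. Whether the sequence is part of ribosomal RNA was not tested. Capitals mark bases that lie in such a shared stretch, so the identical copies are all capitals. Gm23935 lies at chr16:11144125-11144181 (plus strand), Gm24270 at chr9:56223715-56223771 (minus), Gm24187 at chr13:9834469-9834525 (minus), Gm23388 at chr8:85112012-85112068 (minus) and Gm25911 at chr1:167340369-167340424 (minus).
Gm23935: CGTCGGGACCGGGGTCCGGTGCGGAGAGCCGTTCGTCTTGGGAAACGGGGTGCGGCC
Gm24270: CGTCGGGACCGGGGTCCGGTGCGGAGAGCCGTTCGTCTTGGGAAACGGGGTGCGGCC
Gm24187: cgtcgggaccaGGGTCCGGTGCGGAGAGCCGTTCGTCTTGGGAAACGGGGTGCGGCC
Gm23388: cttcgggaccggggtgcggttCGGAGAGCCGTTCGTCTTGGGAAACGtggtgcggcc
Gm25911: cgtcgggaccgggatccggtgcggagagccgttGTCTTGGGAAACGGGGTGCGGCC

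Gm44456 is shown because all but its last bases are a serine tRNA sequence, with the 82 bases it shares with the tRNA-named miRNA gene n-TStga1 in capitals (chr13:21924928-21925016, minus strand). Gm27881, with 28 and 38 reads, is shown because it has no copy among the miRNA genes and no sense host (chr1:13262198-13262279, plus strand). It has no capitals.
Gm44456: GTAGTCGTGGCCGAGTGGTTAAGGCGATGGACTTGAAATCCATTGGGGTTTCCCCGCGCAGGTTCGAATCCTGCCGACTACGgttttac
Gm27881: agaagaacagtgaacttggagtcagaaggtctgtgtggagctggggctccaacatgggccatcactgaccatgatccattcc

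The 39 genes together took few reads. They received 209 reads in replicate 1, or 0.00688% of miRNA reads (95% Wilson interval 0.00601 to 0.00788), and 397 reads in replicate 2, or 0.00751% (0.00681 to 0.00829). The mean was 72.0 ± 4.46 CPM (SD, n = 2), and the intervals cover counting error only, since no molecular identifiers are recorded. The Mir-named genes took 3036564 and 5283484 reads. Within the set, 6 genes held 67% of the 606 reads and the 13 genes with at least 10 reads held 85.3%. The median gene had 6 reads over both libraries, against 19 for Mir-named genes with reads. Reads came in both libraries at 26 genes, in replicate 1 only at 4 and in replicate 2 only at 9. At 19 genes, neither library exceeded 3 reads. Just inside the threshold were 8 genes with a single read, and just outside it were the 928 genes with 0.

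**Figure D1:**
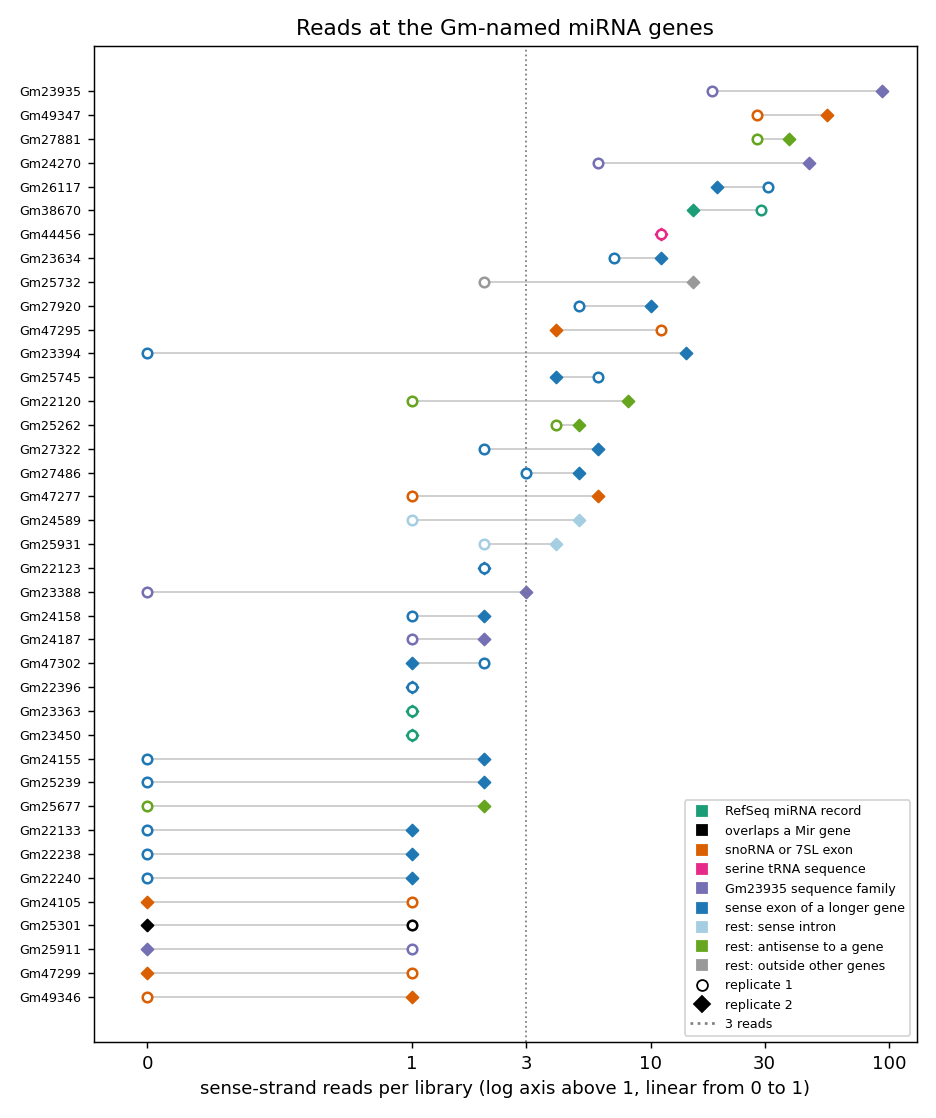
Sense-strand reads at each of the 39 Gm-named miRNA genes, ordered by their sum, with an open circle for replicate 1 and a filled diamond for replicate 2, coloured by class (rest marks genes left after the other classes). The horizontal axis is logarithmic above 1 read and linear from 0 to 1, and the dotted line marks 3 reads. Gm23935 reaches 93 reads in replicate 2, and the lower part of the plot holds genes with 1 or 2 reads.

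What a Gm-named gene overlapped was first counted from the annotation alone, so a gene could fall under several headings. Of the Gm-named genes that overlap no other gene, 4 of 414 had a read (0.966%): Gm44456, Gm25732, Gm24187 and Gm25911. Of those within a gene on the same strand but on no exon of it, 4 of 187 had reads (2.14%), and of those overlapping a gene on the opposite strand, 10 of 249 did (4.02%). On a sense exon, 24 of 149 genes had reads (16.1%), and of genes that hold a sense transcript start, 11 of 37 did (29.7%).

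**Figure D2:**
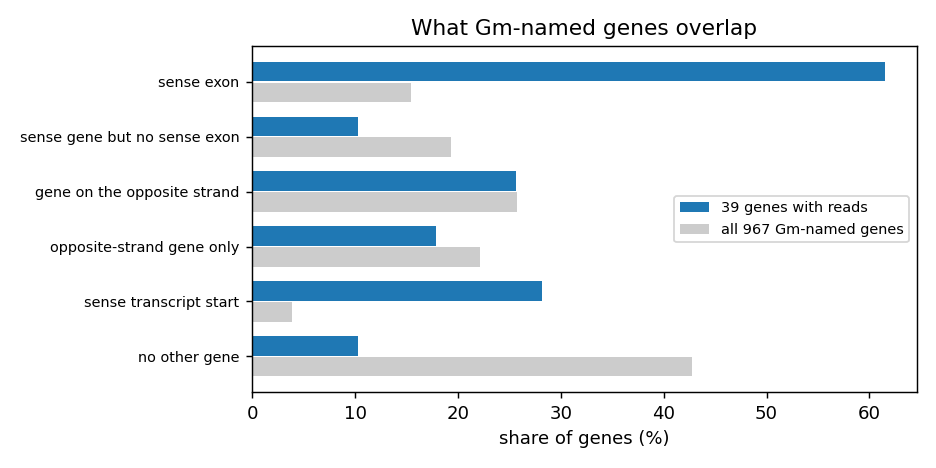
Share of genes with each kind of overlap, in percent, for the 39 Gm-named genes with reads (blue) and for all 967 Gm-named genes outside the left-out loci (grey, the 39 included). A gene can stand in several rows. Sense exons are overlapped by 61.5% of the genes with reads and 15.4% of all, and no other gene by 10.3% and 42.8%.

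The classes, which put each gene in 1 place only, were drawn up with the reads known, so their shares are a description. In replicate 1, sense exons of longer genes held 28.7% of the set's reads, snoRNA or 7SL exons 20.1%, the remaining genes opposite another gene 15.8%, RefSeq miRNA records 14.8% and the Gm23935 family 12.4%. In replicate 2 the Gm23935 family held 36.3%, sense exons 20.7%, snoRNA or 7SL exons 16.6%, the remaining genes opposite another gene 13.4% and RefSeq miRNA records 4.28%. The class with the most reads was thus not the same in both libraries.

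Among the genes with a RefSeq miRNA record, Gm38670 carried nearly all the reads. It lies inside Hspb6, which encodes a small heat shock protein abundant in heart muscle, on an exon of a transcript of that gene but on no coding or untranslated stretch. It had 29 reads in replicate 1 and 15 in replicate 2, or 9.55 and 2.84 CPM (mean 6.19 ± 4.75, SD, n = 2), so replicate 1 was the higher. Gm23450 (mir-935), chosen after its values were seen, had 1 read in each library and lies on the coding sequence of Cacng8, a calcium channel subunit of the gamma family. Gm23363 (mir-3154), also chosen after its values were seen, had 1 read in each library. It lies opposite Dnm1, 116 bases before the start of Mir199b, which had 40 and 39 reads. Counts of 1 do not exceed the level that a count of 0 allows.

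The Gm23935 family had 26 reads in replicate 1 and 144 in replicate 2. Gm23935 itself, opposite the RNA-binding protein gene Zc3h7a, had 18 and 93 reads, or 5.93 and 17.6 CPM. Its identical copy Gm24270, in an intron of the pseudokinase gene Peak1 on the same strand, had 6 and 46 reads, or 1.98 and 8.71 CPM. The other identical copy, Gm24245, had 0 reads in both libraries. Gm24187 had 1 and 2 reads, Gm23388 0 and 3, and Gm25911 1 and 0. Replicate 2 was thus higher at both well-read copies, and the copies differed in count although their annotated bases are the same. Reads mapped to several places are on a summary line and belong to no gene. Reads within the identical bases may thus be missing from these counts. The tables do not give read positions, so what set the copies apart was not tested.

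Gm25732 (chr4:139338206-139338265, plus strand) overlaps no other annotated gene. It had 2 reads in replicate 1 and 15 in replicate 2, and it ends 38 bases from Gm24245, the family member without reads.

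In the snoRNA and 7SL class, Gm49347 overlaps an exon of Snora74a, a snoRNA of the H/ACA kind, on chromosome 18. It had 28 and 55 reads, or 9.22 and 10.4 CPM (mean 9.81 ± 0.840, SD, n = 2), and the libraries were close once scaled. Gm47277 overlaps the snoRNA gene Gm24698 inside Champ1 and had 1 and 6 reads. Gm47295 on Rn7s1 had 11 and 4 reads, higher in replicate 1, while Gm47299 on the second 7SL gene Rn7s2 had 1 and 0. The class also held Gm24105, on a misc_RNA gene of the same name, with 1 and 0 reads, and Gm49346, on Snora81 in Eif4a2, with 0 and 1.

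Gm44456, the serine tRNA sequence, had 11 reads in each library, or 3.62 and 2.08 CPM. The gene n-TStga1, with which it shares 82 bases in a row, had 1 and 1 reads. The gene n-TSaga9, whose longest shared stretch is 33 bases, had 90 and 110 reads. The 3 counts thus differed although the sequences are related. Reads mapped to several places belong to no gene, so reads within the shared bases may be missing from these counts.

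Genes on a sense exon of a longer gene made up the class with most members. Of its 16 genes, 14 lay on untranslated or coding stretches of protein-coding genes: 9 on untranslated bases alone, 4 on both and 1 on coding bases alone. A transcript start lay within 9 of the 16, and 13 were at most 100 bases from one. The 9 held 118 of the class's 142 reads. In the whole set, 11 of 39 genes (28.2%) held a sense transcript start, compared with 3.83% of all Gm-named genes and 5.07% of Mir-named genes with reads.

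Gm26117, at a transcript start of Adgrb1, an adhesion receptor gene, led the class with 31 reads in replicate 1 and 19 in replicate 2. The start of an annotated Adgrb1 transcript lies 32 bases into Gm26117, which lies whole within the gene Adgrb1. Of the bases of Gm26117, 91.6% are G or C. Gm23634, at a transcript start of the microtubule regulator gene Stmn1, had 7 and 11 reads, or 2.31 and 2.08 CPM. Gm27920, at a transcript start of the deubiquitinase gene Usp15, had 5 and 10 reads. Gm23394, at a transcript start of Ralgapa1, a subunit of a complex that turns off Ral proteins, had 0 and 14 reads. It was the only gene with at least 10 reads that was absent from a library. Gm25745, near a transcript start of the chaperone gene Hsp90b1, had 6 and 4 reads. These genes did not share a direction, since replicate 1 was higher in CPM at Gm26117, Gm23634 and Gm25745 and replicate 2 at Gm27920 and Gm23394. The 95% intervals of the log2 ratio of replicate 2 over replicate 1 spanned both directions at 3 of them. They were -1.65 to 1.46 at Gm23634, -1.48 to 2.10 at Gm27920 and -3.65 to 0.69 at Gm25745.

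Lower counts came from Gm27322 at a transcript start of the ubiquitin ligase gene Smurf2 (2 and 6 reads). Gm27486 at a transcript start of Sbno1 had 3 and 5 reads. Gm22123, in the untranslated part of Purb, a nucleic acid-binding protein gene, had 2 and 2 reads. Gm47302, near a transcript start of the collagen gene Col3a1, had 2 and 1 reads, and Gm24158 on the processed transcript Gm11613 had 1 and 2. The other 6 genes of the class had 2 reads or fewer over both libraries.

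Of the genes not yet described, those in a sense intron were Gm24589 in Pkd1 (1 and 5 reads) and Gm25931 in the galactosyltransferase gene B4galt1 (2 and 4 reads), both chosen after their values were seen. The remaining 4 genes opposite another gene include Gm27881. It lies opposite Ncoa2, a nuclear receptor coactivator gene, and had 28 reads in replicate 1 and 38 in replicate 2, or 9.22 and 7.19 CPM (mean 8.21 ± 1.43, SD, n = 2). Gm22120 had 1 and 8 reads, Gm25262 had 4 and 5, and Gm25677 had 0 and 2.

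**Figure D3:**
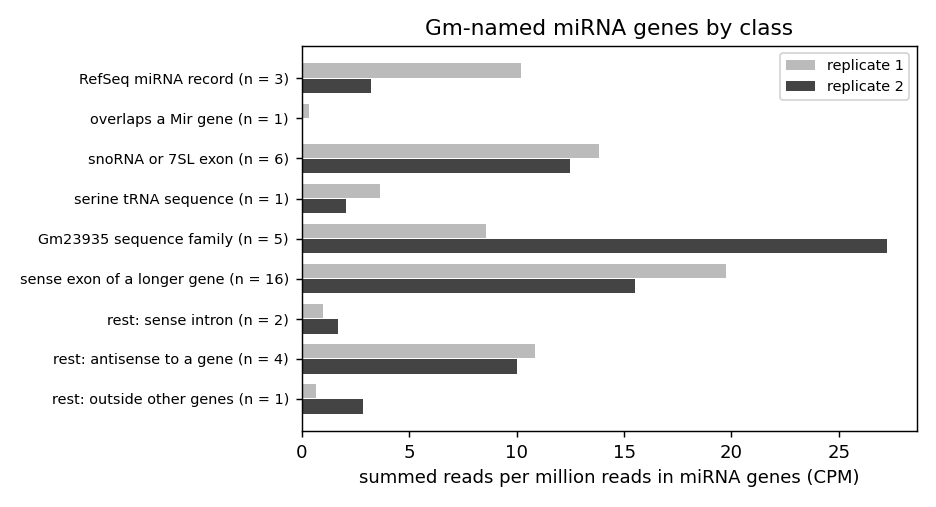
Summed level of each class in CPM (horizontal axis, from 0) in replicate 1 (light) and replicate 2 (dark), with the number of genes in brackets and rest for genes left after the other classes. The Gm23935 family is at 8.56 CPM in replicate 1 and 27.3 in replicate 2, and the snoRNA or 7SL class at 13.8 and 12.5.

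Hosts were counted as genes that hold the whole miRNA gene on the same strand. Of the 39 genes, 23 (59%) had one and 21 had a protein-coding one, compared with 32.3% of all Gm-named genes and 75.4% of Mir-named genes with reads. A sense exon was overlapped by 24 genes (61.5%), compared with 15.4% of all Gm-named genes and 27.8% of Mir-named genes with reads. On the opposite strand, 10 genes (25.6%) overlapped another gene, close to the 25.7% of all Gm-named genes. The 4 named above overlapped no other gene. No test was made of these differences, since the exon classes and the reads are not independent of each other.

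Sequence features that the choice of genes did not use directly were also set beside the other genes. The median share of G and C bases was 67.9% (34.9% to 91.9%), compared with 51.7% in all Gm-named genes and 52.6% in Mir-named genes with reads. The predicted fold had 1 hairpin loop in 23 of 39 genes (59%), compared with 56.9% and 95.1%. The median folding energy per base was -0.399 kcal/mol, between -0.319 in all Gm-named genes and -0.427 in Mir-named genes with reads, on a quantity that also moves with G and C content. A 20-base stretch was shared with another miRNA gene by 14 genes (35.9%), compared with 79.5% and 16.9%. That share is not independent of the choice, since reads mapped to several places belong to no gene and a repeated sequence can thus lack counted reads. The median length was 83 bases, compared with 102 and 79.

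Overlap with Mir genes was found at 1 of the 39 genes, and always on opposite strands. Outside the left-out loci, 5 Gm-named genes lay opposite a Mir gene and 0 lay on the same strand as one, and each held the whole Mir gene. Of these 5, only Gm25301 had a sense read, with 1 in replicate 1 and 0 in replicate 2. It lies on chromosome 18 opposite Mir378a, an abundant miRNA gene of heart and skeletal muscle within Ppargc1b, and shares 66 bases with it. Mir378a had 425976 and 636547 reads on its own strand.

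Counts repeated in both libraries at 4 of these 5 pairs when the columns for the 2 strands were set side by side. The opposite-strand column of Gm25301 held 425976 reads in replicate 1, equal to the sense count of Mir378a, and 636551 in replicate 2, 4 more. At the other 4 genes the opposite-strand counts equalled the sense counts of the Mir gene in both libraries. They were 19051 and 33589 at Gm25927 and Mirlet7e, 32918 and 58779 at Gm24083 and Mir191, 743 and 1372 at Gm24111 and Mirlet7f-1, and 0 and 2 at Gm25641 and Mir9-1. The same reads thus stood under both names in different columns. The column for either strand gave 1 and 4 reads at Gm25301 and 0 and 0 at Mir378a.

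**Figure D4:**
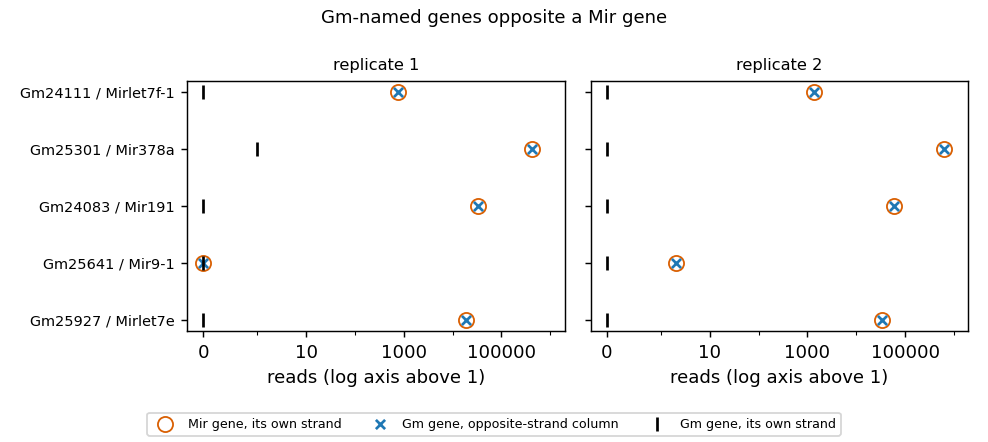
Reads in each library (horizontal axis, logarithmic above 1 read) at the 5 Gm-named genes that lie opposite a Mir gene. Orange circles are the sense counts of the Mir gene, blue crosses the opposite-strand counts of the Gm gene and black bars its sense counts. Each cross lies on its circle, and the only sense read is at Gm25301 in replicate 1.

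For the 38 genes with no miRNA gene opposite, sense reads numbered 208 and 397 and opposite-strand reads 1 and 6, so 99.5% and 98.5% of reads were sense. Only 3 of the 38 had any opposite-strand read. The genes were chosen by their sense reads, and the sense column by its larger total, so these shares follow from the choice.

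Sense counts repeated among the 39 genes only at low values. A pair of counts was shared by 16 genes in 5 groups, and the largest sum among the repeated pairs was 3 reads. The other 23 genes had a pair of their own within the set, and 0 of the 39 genes overlapped each other. Against all miRNA genes, in the set or outside it, 30 of the 39 genes shared their pair with another gene. Of the 13 genes with at least 10 reads, 4 did. Gm25732 shared its pair with Mir5616, Gm47295 with Mir376b, Gm23394 with Mir5119, and Gm25745 with Mir1231 and Mir6912. Small whole numbers repeat often, and no test was made of these matches.

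The libraries were compared at the 13 genes with at least 10 reads, by an exact two-sided binomial test given the library totals and adjusted over all 424 miRNA genes tested (Benjamini-Hochberg). Of the 13, 6 differed and 7 did not pass, while 224 of all 424 genes (52.8%) were called. The share in the set was near that background. Higher in replicate 2 were Gm23935 (log2 ratio 1.57, 95% interval 0.83 to 2.39, adjusted p = 1.25e-05 by the exact binomial test), Gm24270 (2.14, 0.91 to 3.66, adjusted p = 0.0002) and Gm23394. Since Gm23394 had no read in replicate 1, its ratio is given as a bound without an interval. With 3 reads allowed in replicate 1 and its 14 reads in replicate 2 taken as exact, it was at least 2.68-fold higher in replicate 2 (adjusted p = 0.00747 by the exact test). Higher in replicate 1 were Gm26117 (-1.51, -2.41 to -0.64, adjusted p = 0.000802 by the exact test), Gm38670 (-1.75, -2.76 to -0.80, adjusted p = 0.000283) and Gm47295 (-2.26, -4.36 to -0.50, adjusted p = 0.0112). At Gm49347, the snoRNA-linked gene, the log2 ratio was 0.17 (-0.51 to 0.89) and at Gm27881 it was -0.36 (-1.10 to 0.40), so differences within those intervals could not be seen.

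This test covers counting error between 2 libraries and no condition. With the spread between the libraries added as a common dispersion (edgeR exact test), 0 of the 13 genes and 12 of all 424 genes passed after adjustment. Of the 13, 2 had an unadjusted p under 0.05, and adjusted p ranged from 0.275 to 1. The dispersion was estimated from these same 2 libraries, so few calls were to be expected in any set of genes. Other miRNA genes also differed between the libraries: the summed level of the red blood cell list was 8201 CPM in replicate 1 and 2542 in replicate 2, with 3 of 3 genes read at least 10 times in both. The epithelium list was at 298 and 3874 CPM, with 6 of 7. Their part in the differences above was not tested, and in bulk tissue fewer cells of a type and less RNA per cell cannot be told apart.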

How the data were processed

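Small RNA reads from 2 heart libraries were used as raw read counts per miRNA gene, as deposited by the authors. Per the text deposited with the tables, the assembly was mm10 and the annotation GENCODE M21. For the aligner, counter and trimming, names were not given in the sources used here. Reads on either strand and on each strand alone stand in separate columns. No strand is named, so the column with more reads over miRNA genes was taken as sense. Reads mapped to several places (3857758 and 6355706) belong to no gene.

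Positions, hosts and sequences came from the M21 annotation and its transcripts, folds from RNAfold 2.7.2, and miRNA records from RefSeq. All else was computed in Python 3.11.15 with scipy 1.17.1. Scaling used library totals, with TMM and DESeq2 1.42.0 size factors and the edgeR 4.0.16 exact test as alternatives. Named genes were those with at least 10 reads, those overlapping a Mir gene, and those on an exon with at least 3 reads, and any other gene was named after its values were seen. The genes, lists and tests were chosen with earlier results of these data known.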

Additional observations from a re-analysis of the deposited data

Results flagged for a closer look

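Opposite-strand reads, which no comparison above uses as a level, exceeded 3 reads at 2 of the 39 genes after the reads counted for an opposite Mir gene were taken off. Gm25262 had 5 such reads in replicate 2 and 0 in replicate 1, beside 5 and 4 sense reads. Gm25301 had 4 reads in replicate 2 beyond those counted for Mir378a. Its 113 bases reach beyond the 66 bases of Mir378a on that strand. No control library was available as a background for these counts, so each was set against the 3 reads that a count of 0 allows.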

How the results depend on the processing

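The number of genes, 39, was 43 with the either-strand column, 26 with a read asked for in each library and 40 with the left-out loci kept in, but 12 with the opposite-strand column and 13 with at least 10 reads asked for. Leaving out 1 library gave 30 to 35 genes. Their share of miRNA reads, 0.00720%, was 0.00582% with reads outside miRNA genes in the denominator. Without either library it ran from 0.00688% to 0.00751%. For the other columns, the genes were chosen anew and set against the total of that column. The 43 genes of the either-strand column held 0.00999% of its reads. In that column 35 of the 39 genes kept their sense counts, while Mir378a had 0 and 0 reads. The cause of the changed share was not tested. The 12 genes of the opposite-strand column, not all of them among the 39, held 57.3% of its reads. There Gm25301 and its like take the counts of Mir genes. The overlap with a Mir gene rests on a single read at Gm25301: it fell from 1 gene to 0 with at least 10 reads asked for, and ran from 0 to 1 without either library. Genes inside a sense host numbered 15 to 23 when 1 library was left out, with 15 when replicate 2 was left out. Differences between the libraries stayed at 6 genes with TMM scaling, with DESeq2 size factors, with genes of at least 1 read tested and with the either-strand column. They went to 0 with the exact test of edgeR, which called 12 of all 424 genes. The log2 ratios of the 13 named genes had the same sign under every alternative run, and 6 lost the call under that test. Depth is a limit, as 19 of 39 genes did not exceed 3 reads in either library.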
